A study of Caenorhabditis elegans with 2 samples.

Results

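Autosomal promoter-proximal NHR-25 peaks are chromatin immunoprecipitation peaks of the nuclear hormone receptor NHR-25 in the nematode Caenorhabditis elegans. They lie beside the starts of protein-coding genes on the 5 autosomes. They were taken from the thresholded ce11 peak list of the series by dropping chromosome X and the mitochondrial genome and keeping every peak whose summit lay within 500 bp of an annotated 5′ end of a protein-coding transcript. The rule kept 630 of 1826 peaks (34.5%). It used position alone and no measured signal, although every peak on the list had first passed the authors' threshold. The other peaks were 737 autosomal peaks farther from 5′ ends, 166 promoter-proximal and 268 other peaks of chromosome X, and 25 mitochondrial peaks.

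The series mapped NHR-25 by chromatin immunoprecipitation and sequencing in whole hermaphrodite worms at L4, the last larval stage. There was 1 group with 2 biological replicates. Both came from strain OP33, genotype unc-119(ed3) III; wgIs33, in which a stably integrated transgene adds GFP-FLAG to the C terminus of NHR-25, and the tagged protein was pulled down with an antibody against GFP from sonicated chromatin. Since whole animals were used, binding in 1 tissue cannot be told apart from weaker binding in many, and the transgene's product need not match the level of the native protein. The labels also name possible control libraries, not analysed here.

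NHR-25 belongs to the NR5A nuclear receptors, a family that includes fly FTZ-F1 and mammalian SF-1. These receptors bind DNA as monomers, contacting the nuclear receptor core AGGTCA and a few bases on its 5′ side, and the strict form of their site is written TCAAGGTCA. In the worm, nhr-25 is known for its part in molting, epidermal and seam cell development, and the development of the vulva and gonad.

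Sequences around the summits are given first, because the motifs that they hold differ from the family's own site. Each is a stretch of the ce11 genome (assembly WBcel235, RefSeq) that reaches 50 bases to each side of the summit, written 5′ to 3′ on the strand of the nearest gene. Capitals mark the named motif on either strand. A relaxed NR5A site was searched, read as T or C, then CAAGG, then T or C, then C, then A or G. The 4 members shown for it are smk-1 (chrV:8607552-8607652, plus strand), nlp-24 (chrV:11616107-11616207, plus strand), gcy-33 (chrV:12002150-12002250, minus strand), whose summit lies inside a tRNA gene, and rps-16 (chrV:15000385-15000485, minus strand), whose summit lies in a coding exon.
smk-1: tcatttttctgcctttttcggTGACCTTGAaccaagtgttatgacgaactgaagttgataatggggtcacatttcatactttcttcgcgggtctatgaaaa
nlp-24: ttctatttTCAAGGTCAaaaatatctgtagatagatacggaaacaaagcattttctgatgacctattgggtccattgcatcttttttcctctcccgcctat
gcy-33: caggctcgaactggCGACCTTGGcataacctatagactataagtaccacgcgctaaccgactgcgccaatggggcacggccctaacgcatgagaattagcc
rps-16: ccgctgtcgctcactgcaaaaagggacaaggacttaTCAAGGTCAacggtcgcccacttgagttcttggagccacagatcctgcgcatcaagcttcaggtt
In nlp-24 and rps-16 the capitals spell the strict form on the strand of the gene, and in smk-1 they spell it on the other strand.

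The motifs found more often at these summits than beside them were of other kinds, and examples are shown from members off the first autosome whose match lies inside the printed window of 50 bases on each side of the summit. A GAGA repeat, GAGAGAG, is marked at hsp-1 (chrIV:17278515-17278615, plus strand) and his-31 (chrIV:8334094-8334194, minus strand). The site type of the zinc-finger protein EOR-1, GAGACGCAG, is marked at set-16 (chrIII:13643707-13643807, plus strand) and sec-61.G (chrV:10897322-10897422, minus strand). A GC-box of the SP1 type, GGGCGG, is marked at rps-28 (chrIV:1659188-1659288, plus strand).
hsp-1: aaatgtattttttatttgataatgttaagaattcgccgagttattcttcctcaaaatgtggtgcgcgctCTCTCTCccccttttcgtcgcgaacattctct
his-31: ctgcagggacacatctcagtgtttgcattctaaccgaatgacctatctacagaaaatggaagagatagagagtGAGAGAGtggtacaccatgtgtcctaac
set-16: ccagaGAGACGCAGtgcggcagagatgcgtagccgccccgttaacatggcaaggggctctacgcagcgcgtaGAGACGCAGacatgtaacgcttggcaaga
sec-61.G: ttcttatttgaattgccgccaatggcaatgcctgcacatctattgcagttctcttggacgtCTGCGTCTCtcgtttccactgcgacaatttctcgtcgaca
rps-28: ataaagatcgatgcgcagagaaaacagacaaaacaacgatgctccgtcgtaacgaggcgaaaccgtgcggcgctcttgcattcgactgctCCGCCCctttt
The window of set-16 holds the EOR-1 type site at 2 places, and the letters CCGCCC between them are the SP1 type site on the other strand. A match is a description of the letters and does not show that a factor was bound.

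Summits lay mostly upstream of the genes. Of the 630 members, 542 (86.0%) had the summit upstream of the nearest 5′ end and 88 (13.97%) at or downstream of it. The median position was 171 bp upstream, and 296 summits (47.0%) lay more than 100 and up to 300 bp upstream, against 125 (19.8%) closer than that and 121 (19.2%) farther away. By annotation 455 summits (72.2%) were intergenic, 100 were in introns, 47 in UTR exons and 28 in coding exons. The body of the nearest gene held 151 of them and the body of another gene 30.

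**Figure D1:**
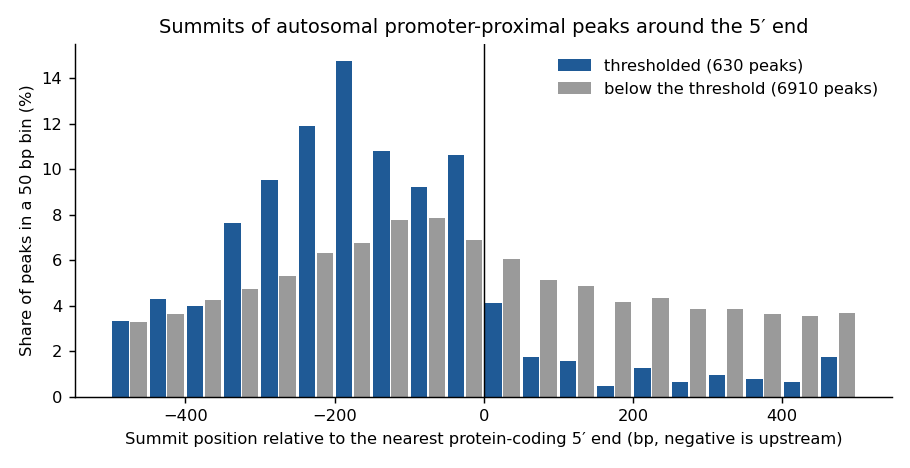
Position of the summit relative to the nearest protein-coding 5′ end, in bins of 50 bp, as a share of peaks (%). Blue bars are the 630 thresholded members and grey bars the 6910 autosomal promoter-proximal pooled peaks below the threshold; the blue bars are highest from 200 to 150 bp upstream, at 14.8%, and fall to 4.13% in the first 50 bp downstream.

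Weaker peaks were less often upstream. The pooled list of both replicates holds 30000 entries, which the labels name peaks and background, and its autosomal promoter-proximal entries that overlap no thresholded peak numbered 6910. Among these weaker entries 3929 (56.9%) lay upstream, and the odds of lying upstream were 4.67 times as high for the members (95% interval 3.70 to 5.95, two-sided Fisher exact p = 3.5e-52). Promoter-proximal peaks of chromosome X were upstream in 84.9% of cases, with an odds ratio of 1.09 for the members (0.646 to 1.80, exact p = 0.71), so a difference either way within that interval was not detectable. Peaks are not independent replicates, and these tests describe lists derived from 2 replicates.

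Promoter-proximal positions were also more frequent among stronger peaks. On the autosomes 630 of 1367 thresholded peaks (46.1%) were promoter-proximal, against 6910 of 22690 peaks below the threshold (30.5%). The odds ratio was 1.95 (1.75 to 2.18, two-sided Fisher exact p = 7.6e-32). With the autosomal pooled peaks ranked by signal and cut into bins of 1000, the share was 46.9% in the strongest bin, 39.8% in bin 5, 30.9% in bin 10 and 22.0% in bin 24. The decline was not smooth, as bin 16 stood at 29.9% between 26.8% and 26.9%.

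**Figure D2:**
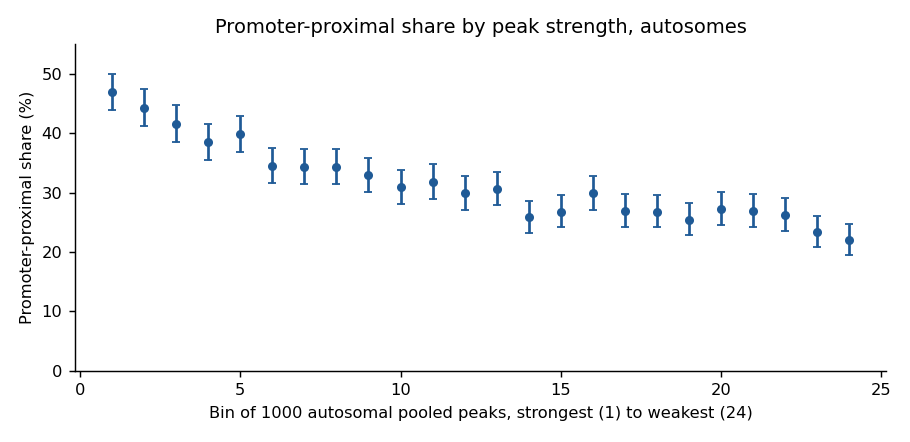
Share of promoter-proximal summits (%) in each bin of 1000 autosomal pooled peaks, ordered from the strongest (bin 1) to the weakest (bin 24), with Wilson 95% intervals that cover counting error only. The share is 46.9% in bin 1 and 22.0% in bin 24.

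Many members lay close to the 5′ ends of a pair of genes that are transcribed away from each other. The summit need not lie between these ends, as at nhr-94 and nhr-152, where it was 72 bp downstream of that of nhr-152. A summit was called divergent when 5′ ends on both strands lay within 500 bp, the minus-strand end to the left of the plus-strand end. This held for 152 of 630 members (24.1%), against 525 of 6910 weaker promoter-proximal peaks (7.60%), an odds ratio of 3.87 (3.13 to 4.75, two-sided Fisher exact p = 4.1e-33). With upstream summits alone on both sides, an alternative added after the data were seen, the odds ratio was 3.01. Promoter-proximal peaks of chromosome X were divergent in 12 of 166 cases (7.23%), and the odds ratio of the members against them was 4.08 (2.19 to 8.29, exact p = 2.8e-07). How often genes are arranged divergently on each chromosome was not tested. In all 465 members had the 5′ ends of 1 gene within reach, 162 of 2 genes and 3 of 3 genes.

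The highest divergent member, between set-16, an MLL-type histone methyltransferase, and drr-2, had a signal of 72.99 in replicate 1, 94.9 in replicate 2 and 156 in the pooled list. These signals are the authors' own values per peak, on a scale that is not stated, and serve to rank peaks within a list. The peak between rps-12, a protein of the small ribosomal subunit, and ska-3 reached 54.5, 60.4 and 116 in the same order. The DNA-binding DREAM subunit gene lin-54 shared a peak with the ribosomal gene rpl-12, at 43.5, 64.0 and 107. The histone genes his-67 and his-68 shared a peak of 52.3, 65.9 and 118, and trap-3 and sec-61.B, which both encode parts of the endoplasmic reticulum translocon complex, shared one of 39.0, 72.98 and 109. In a shared promoter these lists cannot assign a peak to either gene.

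The members ranged in pooled signal from 30.3 to 267, with a median of 41.8, close to the median of 40.7 for the other autosomal peaks. The strongest was upstream of rpl-3, a protein of the large ribosomal subunit (WBGene00004414, chromosome III, 3867436 to 3867741, summit 283 bp upstream), with 114.6 in replicate 1 and 149 in replicate 2. Next to it in rank was tasp-1, a taspase-type protease (WBGene00010480, chromosome III, 10759102 to 10759384, summit 58 bp upstream), with 114 and 150. After these 2 the signal dropped by a wide step to rpl-35, another large subunit protein, with 171 pooled, 60.3 in replicate 1 and 112 in replicate 2. The others of the first 10 were set-16, the translocon subunit gene sec-61.G at 140 pooled, rpl-15 at 137, the p97 ATPase gene cdc-48.1 at 136, the histone gene his-37 at 136, the translation factor gene iff-2 (eIF5A) at 129 and the pair rpl-20 and Y17G9B.5 at 127. Ranks 11 to 20 ran from 127 at eef-1G, a translation elongation factor, to 107 at Y39B6A.43, and included the respiratory chain subunit genes cox-5B at 110.2 and cox-5A at 109.6. All 20 summits were intergenic and upstream, and 10 of the 20 windows held none of the 12 motifs described below.

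Both replicates placed all 20 of these peaks among their own strongest. Each replicate list was cut to its 1826 peaks of highest signal, and an overlap of 1 bp or more counted as found. Of the 630 members, 409 (64.9%) were found in replicate 1, 507 (80.5%) in replicate 2, 320 (50.8%) in both and 34 in neither. The share in both was 88.1% for the 210 members of highest pooled signal (83.0% to 91.8%), 53.8% for the next 210 and 10.5% for the 210 weakest. The threshold used both replicates and the pooled list, so this order is partly built in. Other autosomal peaks were found in both in 52.2% of cases, an odds ratio of 0.944 for the members (0.759 to 1.17, two-sided Fisher exact p = 0.63).

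Single members could differ widely between the replicates. The leucine zipper gene zip-2 had 8.28 in replicate 1 and 70.3 in replicate 2, and lin-35, the worm Rb gene, had 3.08 and 40.2. In the other direction the collagen gene col-144 had 41.5 and 8.02, and blmp-1, a zinc-finger regulator of molting and developmental timing, had 27.7 and 7.31. No replicate 1 peak overlapped 11 of the members and no replicate 2 peak overlapped 1. Across the 618 members with a peak in both lists, Spearman's rho between the replicate signals was 0.246 and Pearson's r of their log2 values was 0.294. These are descriptions across peaks of 1 pair of libraries, chosen partly on the pooled signal. With 2 replicates and peak lists only, no error can be put on the signal of a peak, and read depth is unknown.

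**Figure D3:**
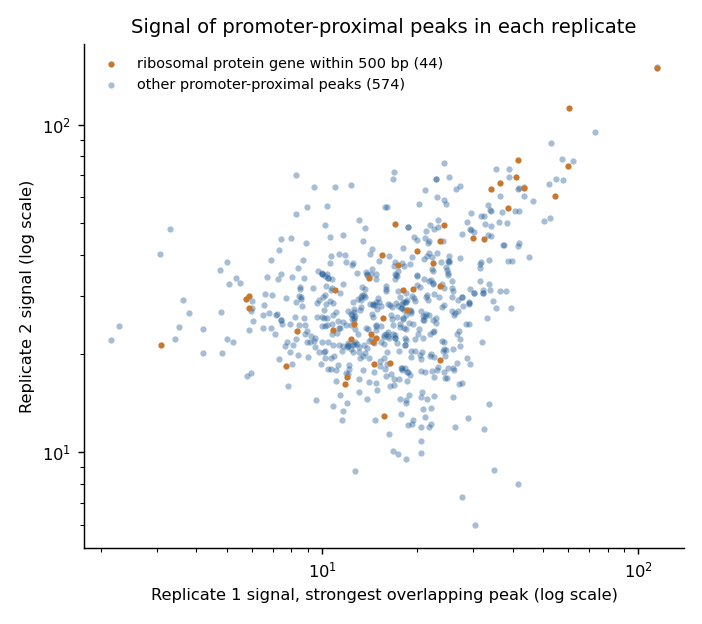
Signal of the strongest overlapping peak in replicate 1 (horizontal) and replicate 2 (vertical), both on log scales, for the 618 members with a peak in both lists. Orange points are the 44 members with a listed ribosomal protein gene within 500 bp and blue points the other 574; a few peaks led by rpl-3 and tasp-1 stand high in both replicates and the rest form a broad cloud.

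The NR5A site itself was rare at these promoters. Within 100 bp of the summit 8 of 630 members (1.27%, Wilson 95% interval 0.645% to 2.49%) held it, and so did 8 of the 630 flanking windows of the same width centred 500 bp upstream (two-sided exact McNemar test, adjusted p = 1.0 after Benjamini-Hochberg adjustment over 12 motifs). The other autosomal peaks held it in 36 of 737 summits (4.88%) and 3 of their flanks (0.407%). The odds of a site were lower at the members, with an odds ratio of 0.250 (0.0999 to 0.554, two-sided Fisher exact test, adjusted p = 0.00049). The call was lost with a promoter window of 250 bp (odds ratio 0.418, exact test, adjusted p = 0.074) and with motif windows of 50 bp (0.384, exact test, adjusted p = 0.12). The strict form TCAAGGTCA was in 3 members, 2 of their flanks and 10 of the other autosomal summits. As a background over promoters at large, 73 of 17242 autosomal genes (0.423%) held the relaxed site in a window of the same width centred 171 bp upstream of the gene start.

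By location the site was as follows. Among intergenic summits 5 of 455 members (1.10%, 0.470% to 2.55%) and 23 of 452 other autosomal peaks (5.09%, 3.41% to 7.52%) held the site. Of the intronic summits 1 of 100 members and 11 of 235 other peaks (4.68%) held it. The shorter core AGGTCA was at 54 members (8.57%) and 40 flanks (6.35%), which did not pass the exact McNemar test (adjusted p = 0.35), although it did with a 1000 bp promoter window (exact test, adjusted p = 0.032) and with members at or above the median signal (exact test, adjusted p = 0.023). The other autosomal peaks held the core in 15.6% of summits, above the members (odds ratio 0.507, 0.353 to 0.722, Fisher exact test, adjusted p = 0.00044). That call was lost when replicate 1 alone supplied the peaks (odds ratio 0.684, exact test, adjusted p = 0.075). Every relaxed site with a T before its final CA holds this core, so the 2 searches overlap. Both strands were searched for all motifs.

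The 8 members with a site were spread over the range of signal, with 3 among the 210 strongest members, 2 among the middle 210 and 3 among the 210 weakest. The highest was smk-1, a regulator of longevity that acts with the FOXO factor DAF-16, whose peak of 70.1 ranked 79 of 630 and had 15.8 in replicate 1 and 55.9 in replicate 2. The guanylate cyclase gene gcy-33 followed with 59.3 (16.2 and 39.7 in the replicates). The neuropeptide-like gene nlp-24 had 56.8 (18.7 and 48.7), and T01D3.3 had 46.8 (17.8 and 28.4). Lower still were the transthyretin-like gene ttr-15 at 37.7, the collagen gene col-39 at 36.7, the small ribosomal subunit gene rps-16 at 36.3 and F53C11.4 at 32.05. The summits of rps-16 and F53C11.4 lie in coding exons, 106 and 218 bp downstream of the 5′ end. At smk-1 the summit was 198 bp upstream, and at nlp-24 it was 219 bp upstream.

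The GAGA repeat, the EOR-1 type site and the SP1 type site were more frequent at the summits than in the upstream flanks. GAGAGAG was at 98 members (15.6%) and 25 flanks (3.97%), with 93 windows holding it at the summit alone and 20 in the flank alone (exact McNemar test, adjusted p = 1.2e-11). GAGACGCAG was at 81 members (12.9%) and 6 flanks (0.952%; exact McNemar test, adjusted p = 2.2e-17). GGGCGG was at 71 members (11.3%) and 22 flanks (3.49%; exact McNemar test, adjusted p = 4.9e-07). Over the promoters of all 17242 autosomal genes the same letters were in 4.64%, 2.31% and 4.88% of windows. The median GC content was 42.8% in the summit windows and 36.3% in the flanks. Its part in the differences between summits and flanks was not tested. The GAGA repeat and the EOR-1 type site occurred together in 23 members and at least 1 of them in 156, and where they abut their letters can overlap. None of these 3 motifs was at 420 of the 630 summits (66.7%), and 244 members held none of the 12.

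These 3 motifs compared differently with the other autosomal peaks. The GAGA repeat was at 15.6% of the members and 28.4% of the other summits, an odds ratio of 0.465 (0.352 to 0.613, Fisher exact test, adjusted p = 1.6e-07). The EOR-1 type site was at 12.9% and 15.1% (odds ratio 0.832, 0.603 to 1.15, exact test, adjusted p = 0.33), and the SP1 type site at 11.3% and 9.77% (1.17, 0.817 to 1.68, exact test, adjusted p = 0.39). For the last 2 no difference was detectable, and the intervals still allow a moderate one; with replicate 2 alone supplying the peaks the SP1 type site passed (odds ratio 1.67, exact test, adjusted p = 0.014). Against the 166 promoter-proximal peaks of chromosome X none of the 12 motifs passed by the Fisher exact test; no raw p was below 0.05 except that of the tRNA B box.

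Placement around the summit is given as a description, since distances were not tested between motifs. Among members that hold it, the match nearest the summit lay at a median of 31 bp for the EOR-1 type site and 38 bp for the GAGA repeat, and 43.2% of the EOR-1 type matches were within 25 bp. The E-box was as near, at a median of 30.5 bp with 44.7% within 25 bp, and the NR5A site of 8 members lay at 28.5 bp with 4 of the 8 within 25 bp. The nuclear receptor core lay at a median of 55 bp. The EOR-1 type site was on the strand of the gene alone in 37 members and on the other strand alone in 42, and no motif showed a strand preference that passed the adjusted exact test.

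**Figure D4:**
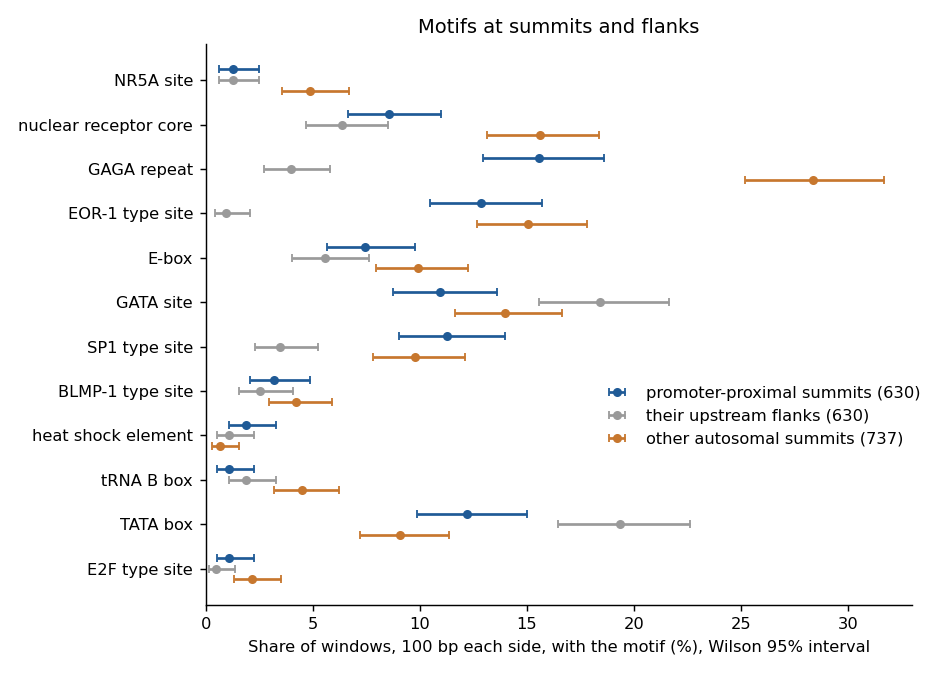
Share of windows (%), each reaching 100 bp to both sides of its centre, that hold each of 12 motifs, with Wilson 95% intervals covering counting error only. Blue points are the summits of the 630 members, grey points their upstream flanks and orange points the 737 other autosomal summits; blue lies right of grey for the GAGA repeat, the EOR-1 type site and the SP1 type site, and left of orange for the NR5A site, the nuclear receptor core and the GAGA repeat.

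The GATA site and the TATA box were less frequent at the summits than in the flanks. The GATA site TGATAA, bound by the intestinal and epidermal GATA factors, was at 69 members (11.0%) and 116 flanks (18.4%; exact McNemar test, adjusted p = 0.00072). TATAAA, the TATA box, was at 77 members (12.2%) and 122 flanks (19.4%; exact McNemar test, adjusted p = 0.0020). Base composition moved with these motifs too, since the median GC content was 42.8% in the summit windows and 36.3% in the flanks, and its part in these differences was not tested. Both calls were lost with motif windows of 200 bp and without replicate 2, and the TATA call also with a 250 bp promoter window, with members at or above the median signal and against downstream flanks. The E-box CACGTG was at 7.46% of summits and 5.56% of flanks, the BLMP-1 type site AAAGTGAA at 3.17% and 2.54%, the heat shock element TTCTAGAA at 1.90% and 1.11%, and the E2F type site TTTCCCGC at 1.11% and 0.476%. None of these 4 passed the exact McNemar test.

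Small structural RNA genes were close to these summits less often than to other autosomal peaks, and more often than to weaker promoter-proximal peaks. A tRNA, snoRNA or snRNA gene lay within 100 bp of 20 members (3.17%), against 67 of the 737 other autosomal peaks (9.09%), an odds ratio of 0.328 (0.186 to 0.555, two-sided Fisher exact p = 6.3e-06). Against weaker promoter-proximal peaks, at 1.24%, the share was higher (odds ratio 2.60, 1.503 to 4.30, exact p = 0.00051). The nearest such gene was a snoRNA for 14 members, an snRNA for 4 and a tRNA for 2. The summit lay inside a snoRNA gene at cfim-2, with a signal of 56.8, and at din-1, with 51.3 (7.41 in replicate 1 and 44.9 in replicate 2). The same held at F55A11.6 with 45.2, K02C4.2 with 41.7 and C33A12.3 with 33.3. At Y75B8A.23, with 49.4, it lay inside sls-2.8, a gene for a spliced leader RNA, and at gcy-33, with 59.3, inside a tRNA gene. The tRNA B box GGTTCGA, a part of the internal promoter of tRNA genes, was at 7 members (1.11%) and 33 other autosomal summits (4.48%; odds ratio 0.240, 0.0889 to 0.557, Fisher exact test, adjusted p = 0.00049). With summits at small RNA genes left out, an alternative added after the data were seen, this call was lost (odds ratio 0.434, exact test, adjusted p = 0.12), as it was with a 1000 bp promoter window (0.549, exact test, adjusted p = 0.14).

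Many worm transcripts receive a spliced leader that replaces their original 5′ end, so an annotated 5′ end can be a trans-splice site and not the place where transcription began. The acceptor letters TTNCAG stood directly before the nearest 5′ end of 189 of 630 members, against 1858 of 6910 weaker promoter-proximal peaks (odds ratio 1.17, 0.969 to 1.40, two-sided Fisher exact p = 0.10). Among upstream summits alone, an alternative added after the data were seen, the shares were 33.4% and 27.5% (odds ratio 1.32, exact p = 0.0051). For these genes the distance from the summit to the 5′ end need not be the distance to the start of transcription.

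The members lay at the promoters of 772 of 17242 autosomal protein-coding genes (4.48%). A gene counted when any of its 5′ ends was within 500 bp of a member summit, and the share of each gene list is read beside this value, with no test. Of the 772 genes, 751 had 1 member, 17 had 2, and 3 had 3. The gene with 4 was nurf-1, a subunit of the NURF chromatin remodeler, whose peaks ranged from 30.7 to 60.2. The genes with 3 were ifbp-1 (40.1 to 89.6), the isocitrate dehydrogenase gene idh-1 (30.7 to 67.3) and lit-1, the Nemo-like kinase of the Wnt pathway (33.3 to 55.6). Some of these peaks overlap each other, as 18 members overlap another member by at least 1 bp.

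Ribosomal protein genes were the most frequent group when a shared peak counted for each of its genes. In the list for the large subunit 26 of 47 genes (55.3%) had a member peak, and in that for the small subunit 20 of 31 (64.5%). When each peak was given to its nearest gene alone, 17 of the 47 and 13 of the 31 remained. By that count the endoplasmic reticulum list described below, with 10 of 27, stood between them, and 609 of all 772 genes remained. The strongest peaks of the 26 large subunit genes ran from 31.7 at rpl-19 to 267 at rpl-3, with a median of 46.04. Those of the 20 small subunit genes ran from 34.3 at rps-3 to 116 at rps-12, with a median of 52.9. The summits of both groups lay far upstream, at medians of -288.5 and -266.5 bp from the genes' own 5′ ends, where a minus sign is upstream. Over all 772 genes the median was -191 bp. The counts of ribosomal genes fell to 5 and 9 with a window of 250 bp. Of these 46 genes 27 shared the peak with another gene, against 326 of all 772 genes with a member. The pairs rpl-24.1 and rps-10 (pooled signal 54.4), rpl-39 and rps-30 (51.4), and rpl-36 and rps-14 (45.9) shared promoters within the group. TTNCAG stood before the nearest 5′ end of 21 of the 26 and 15 of the 20, against 255 of the 772.

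At the ribosomal promoters the EOR-1 type site was at 2 of the 26 large subunit genes and at 0 of the 20 small subunit genes, against 98 of the 772, and the GAGA repeat at 1 and 0, against 110 of the 772. The SP1 type site was at 2 of the 26 large subunit genes and 3 of the 20 small subunit genes, against 88 of the 772. With the strongest member of each gene taken, rps-16 was the only 1 of the 46 genes whose member held the NR5A site. It was also the only 1 whose summit lay downstream of the 5′ end. A weaker member at rpl-12, with a pooled signal of 31.9 in a UTR exon, is outside these counts. Among the ribosomal genes without a member, 19 of 21 and 9 of 11 had a weaker pooled peak at the promoter. The list pattern leaves out rpl-7A, a large subunit gene named here after its value was seen, which shares a peak of 80.6 with set-21. Some ribosomal protein genes have near-identical copies elsewhere in the genome, where reads may be shared.

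**Figure D5:**
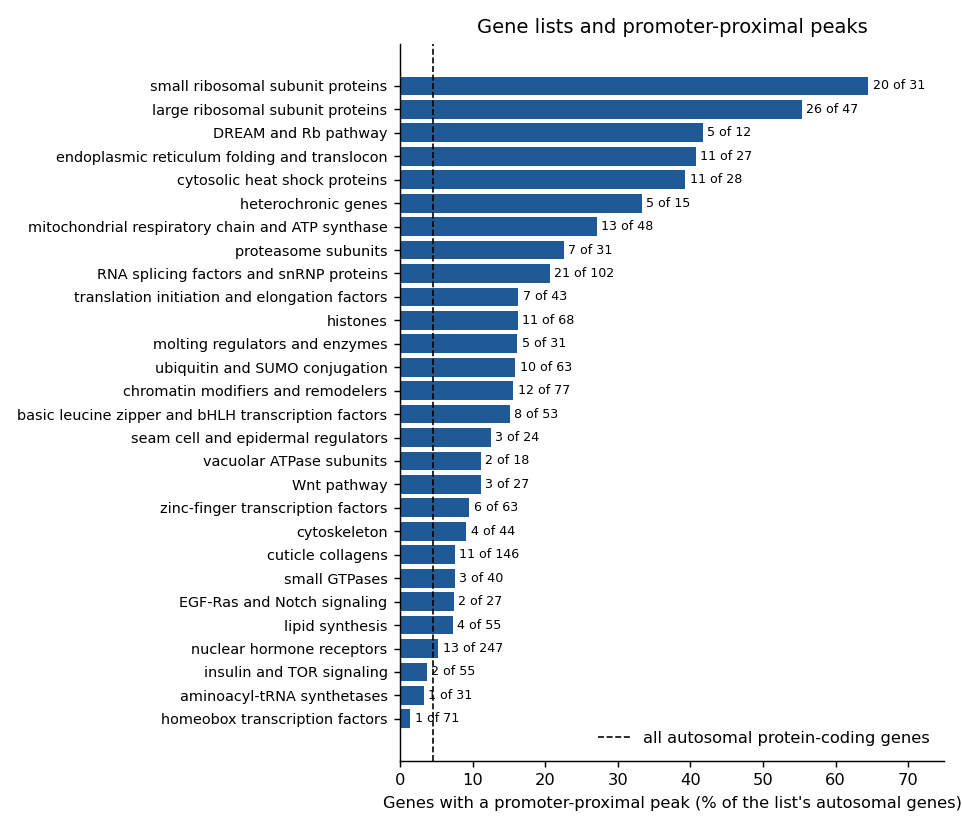
Share of the autosomal genes of each list (%) that have a member peak within 500 bp of a 5′ end, with the number of genes beside each bar. The dashed line marks 4.48% for all 17242 autosomal protein-coding genes; the lists for the small and large ribosomal subunits lie at 64.5% and 55.3%.

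In protein synthesis and folding beyond the ribosome, of the translation initiation and elongation factor genes 7 of 43 (16.3%) had a member, among them iff-2, eef-1G, eef-1A.1 with 97.2 and eif-3.C with 86.3. The aminoacyl-tRNA synthetase genes had 1 of 31 (3.23%, near the background), ears-2 at 49.6, and 2 with either replicate left out. In the endoplasmic reticulum list 11 of 27 genes (40.7%) had a member, with the calreticulin gene crt-1 at 58.8 and xbp-1, the transcription factor of the unfolded protein response, at 55.8. For 10 of these 11 genes the peak was among the strongest of both replicates. Cytosolic chaperones had 11 of 28 (39.3%), led by the Hsp70 gene hsp-1 at 105 (33.9 in replicate 1 and 54.8 in replicate 2) and the Hsp90 gene hsp-90 at 86.2 (16.9 and 71.8). The chaperonin genes cct-1, cct-6, cct-7 and cct-8 were among them. In this list 8 of the 11 shared the promoter, against 326 of all 772 genes with a member. Of the 11, 4 remained when each peak was given to its nearest gene alone. Proteasome subunit genes had 7 of 31 (22.6%), from 34.2 at rpt-2 to 50.7 at rpn-3, and 6 of the 7 shared the peak with another gene.

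Genes of mitochondria, chromatin and RNA processing followed. Of the nuclear genes for the respiratory chain and ATP synthase 13 of 48 (27.1%) had a member, among them cox-5B, cox-5A, cox-6B at 90.04 and atp-1 at 81.2. Of these 13 genes 9 shared the peak with another gene, and 9 remained when each peak was given to its nearest gene alone. Vacuolar ATPase genes had 2 of 18, vha-8 at 66.7 and vha-1 at 47.8, and 1 without replicate 2. RNA splicing genes had 21 of 102 (20.6%), with prp-8, the core spliceosome protein, at 66.0 and snr-4, an Sm protein, at 57.6. Histone genes had 11 of 68 (16.2%) through 6 peaks, all but that of his-37 shared by a divergent pair. With each peak given to its nearest gene alone, 6 of the 11 remained. Histone genes occur in near-identical copies, so their reads may not be assigned to a single copy. Chromatin modifiers had 12 of 77 (15.6%), led by set-16, set-21 at 80.6 and the histone demethylase gene jmjd-1.2 at 72.6.

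The DREAM complex, which represses cell cycle genes together with the Rb protein, had 5 of 12 genes (41.7%), and 3 of the 5 shared the peak with another gene. The summit shared by lin-54 and rpl-12 was 358 bp upstream of lin-54 and 35 bp upstream of rpl-12. Beside lin-54 these were lin-53 at 60.2 (25.7 in replicate 1 and 33.4 in replicate 2), lin-9 at 51.2 (21.6 and 29.2), lin-35 at 43.3 and efl-1, the E2F gene, at 41.8 (12.6 and 21.4). The peaks of lin-54, lin-53 and lin-9 were among the strongest of both replicates, while those of lin-35 and efl-1 were among the strongest of replicate 2 alone. Without replicate 2 the count for this list was 3, and with each peak given to its nearest gene alone it was also 3. The ubiquitin and SUMO conjugation genes had 10 of 63 (15.9%), with the E2 enzyme gene ubc-3 at 68.5.

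Lists closer to the known roles of NHR-25 had shares from 7.41% to 33.3%, with the EGF-Ras and Notch list given below counted among them. All autosomal genes had 4.48%. Listed genes as a whole also stood above that value, as 219 of the 1491 distinct genes of the 28 lists had a member. Beside the share of listed genes as a whole, the molting and heterochronic lists stood higher. The collagen, seam cell, Wnt and EGF-Ras and Notch lists stood lower. Cuticle collagens had 11 of 146 (7.53%), among them col-103 at 54.9 (33.2 in replicate 1 and 25.7 in replicate 2) and col-10 at 54.4 (12.5 and 37.9). Molting regulators and enzymes had 5 of 31 (16.1%), led by myrf-1, a membrane-bound transcription factor of larval development, at 70.8 (12.3 and 65.5), and including mlt-7, a peroxidase of cuticle cross-linking, at 48.1 (24.4 and 19.7). The heterochronic list, which holds genes that time larval cell fates, had 5 of 15 (33.3%), namely mab-10 at 64.5, lin-66 at 59.1, ain-2 at 45.6, blmp-1 at 34.2 and lin-28 at 32.7. The peaks of mab-10, lin-66 and ain-2 were among the strongest of both replicates. Seam cell and epidermal regulators had 3 of 24 (12.5%), lit-1, tlp-1 at 45.1 and the APC-related gene apr-1 at 44.2, and this count was 7 without replicate 1 and 5 without replicate 2. The Wnt pathway had 3 of 27, with mig-5, a Dishevelled gene, at 84.0 in the promoter that it shares with cct-1. With a promoter window of 250 bp the counts were 9 for collagens, 1 for molting, 2 for the heterochronic list, 2 for seam and 2 for Wnt. With 1000 bp they were 11, 7, 9, 6 and 3 in the same order. These small counts move with a few genes, and the lists overlap.

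Among lists of transcription factors, nuclear receptors stood near the background and homeobox genes below it. Nuclear hormone receptors had 13 of 247 (5.26%). For 1 of these, nhr-49, a regulator of fat metabolism, the peak of 42.5 was among the strongest of both replicates. The highest of the group was nhr-47 at 54.3, in a promoter shared with dnj-19. Homeobox genes had 1 of 71 (1.41%), ceh-38 at 58.7, and 2 without replicate 1. Of the leucine zipper and bHLH genes 8 of 53 (15.1%) had a member, among them hlh-30, the TFEB homolog, at 75.6 (38.6 in replicate 1 and 38.4 in replicate 2). Zinc-finger genes had 6 of 63 (9.52%), including eor-1, whose protein's site type is described above, at 40.4 (9.81 and 20.2). None of the 6 was among the strongest of both replicates.

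Signalling, metabolic and structural lists had between 3.64% and 9.09% of their genes with a member. Insulin and TOR signaling had 2 of 55 (3.64%), smk-1 and rheb-1 at 48.8. The EGF-Ras and Notch list had 2 of 27 (7.41%), eor-1 and the Raf gene lin-45 at 36.97. Lipid synthesis had 4 of 55 (7.27%), led by the fatty acid synthase gene fasn-1 at 52.6. Cytoskeleton genes had 4 of 44 (9.09%), with the tubulin gene tba-2 at 94.7 and the actin gene act-2 at 70.2. All 4 had peaks among the strongest of both replicates. Without replicate 1 the count was 7 for the cytoskeleton and 2 for lipid synthesis, and the EGF-Ras and Notch list had 1 with either replicate left out. Small GTPases had 3 of 40 (7.50%). In all 219 of the 772 genes were in at least 1 of the 28 lists and 553 were in none.

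The members were spread over all 5 autosomes. Chromosome V had 139, II had 137, III had 125, I had 123 and IV had 106, and their share among the thresholded peaks of each chromosome was between 41.2% on IV (35.4% to 47.3%) and 51.5% on V (45.5% to 57.4%), with intervals that overlap. Per gene the order differed, as 6.17% of the protein-coding genes of chromosome III and 3.34% of those of chromosome V had a member.

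The edge of the 500 bp rule cut through a continuous range of distances. Just inside were the CREB-family gene crh-2, with its summit 498 bp away and a signal of 50.3, and ZK1248.17, at 496 bp with 50.8. Just outside were nfm-1, at 501 bp with 36.0, and C39E9.8, at 507 bp with 59.2. For 567 of the 630 members the summit was the midpoint of the peak to within 1 bp, and 563 peaks were 390 bp wide. The 67 narrower peaks had a median signal of 89.2, against 40.4 for the others.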

How the data were processed

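ChIP-seq peak lists of NHR-25 in 2 biological replicates were used, 4 lists on ce11 in the 10-column narrowPeak layout. Per the labels, the authors deposited a list for each replicate (23929 and 30000 peaks), a list of the pooled replicates (30000) named as peaks and background, and a thresholded list (1826). The signal of each peak is the authors' deposited score, whose scale is not stated, and it was used only within a list. The other column used is the authors' summit offset. The aligner and peak caller were not given in the sources used here, nor was the threshold. No read counts were used, so depth is unknown and intervals cover counting error only.

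Genes were those of Ensembl release 115 on WBcel235, with 25190 distinct protein-coding 5′ ends on the autosomes. Coordinates count from 1. Shares were compared by two-sided Fisher exact tests with sample odds ratios, and summit windows with flanks by exact McNemar tests, with Benjamini-Hochberg adjustment over 12 motifs and a threshold of 0.05 (Python 3.11.15, scipy 1.17.1). The motif procedures were tested on simulated data with planted sites.

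The members, gene lists and motifs were chosen with earlier results of these data known. Genes are matched to lists by name patterns. Named genes are those at the 20 strongest members, up to 4 genes per list by signal, the members with an NR5A site, genes with 3 or more members and the edges of the rule; genes named beyond these, such as those with unlike replicates, at divergent promoters or at small RNA genes, were chosen after their values were seen. Alternatives covered the windows, 5′ ends, signal cut, close summits, flank side, overlap rule and each replicate alone.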

Additional observations from a re-analysis of the deposited data

How the results depend on the processing

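Of 84 recomputed answers to a comparison, 74 kept their direction and side of the threshold or stayed within 1.5 times the count reported. The number of members was 419 with a 250 bp window and 330 with peaks at or above the median signal, and the number of genes was 474 and 420 under those settings and 407 with members among the strongest of both replicates, all by construction of fewer positions or peaks. With 1 end per gene the odds ratio for replicate agreement turned to 1.05 (exact p = 0.70); the cause was not tested. The number of motifs that passed against the flanks was 3 with 200 bp motif windows and ranged from 3 to 6 with either replicate left out. The number that passed against the other autosomal peaks was 7 with 200 bp motif windows. The odds ratio for TTNCAG was 1.32 with upstream summits only. Among single motifs none of the reversed values passed its test: against the flanks the difference was 0.616 percentage points for the tRNA B box with a 1000 bp promoter window, -0.327 for the heat shock element with replicate 1 left out (0.498 without replicate 2, in the direction reported), -0.166 for the BLMP-1 type site with replicate 2 left out (0.818 without replicate 1, in the direction reported) and 3.17 for the TATA box with 200 bp motif windows, and against the other autosomal peaks the odds ratio was 0.863 for the TATA box with 50 bp and 1.08 for the GATA site with 200 bp motif windows. Of 252 recomputed counts for single gene lists, 69 moved by over 1.5 times. The causes were not tested. No paired analysis was possible because there is 1 group. Depth is unknown, and with 2 replicates no error can be given for a peak's signal.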

Other observations

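The heat shock element TTCTAGAA was at 12 members (1.90%), near its share of 1.61% over the promoters of all 17242 autosomal genes. It was in 1.11% of the flanks and did not pass against them (exact McNemar test, adjusted p = 0.41). The 12 members included bag-1, a co-chaperone gene of the BAG family, with a pooled signal of 77.3 (9.40 in replicate 1 and 64.6 in replicate 2), F44E5.5 with 49.1 (10.6 and 37.7) and Y43F8B.2 with 80.4 (27.6 and 46.5). All 3 were named after their values were seen. Of the 12 summits 7 were both intergenic and upstream of the nearest 5′ end.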
